A study of Saccharomyces cerevisiae W303 with 30 samples.

Results

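The genes that build ribosomes in budding yeast were followed here as a module of 54 genes, out of 6692 genes with counts in each library. They form a list of gene identifiers put together by function, with earlier results of these data known but with no measured value in its rule. It holds 7 genes for small nucleolar ribonucleoproteins (snoRNPs) and nucleolin, 16 for the small subunit (SSU) processome, 6 for RNA helicases, 20 for assembly of the large (60S) subunit and 5 for RNA polymerase I (Pol I). The members lie on 14 chromosomes, with coding lengths from 471 to 7482 bases and a median of 1560. Their counts ranged from 246 to 8090 per library, so all 54 passed the filter on low counts in every fit.

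Ribosome production starts in the nucleolus, where Pol I transcribes the ribosomal DNA into a long precursor RNA. SnoRNPs modify that precursor, the SSU processome folds and cleaves the part that becomes 18S rRNA, and a further series of assembly factors, GTPases and helicases matures the 60S subunit. In yeast these genes are known as the ribosome biogenesis regulon, which is transcribed by RNA polymerase II, rises together with growth and falls together in stress, and whose promoters are known for a pair of short sequences called PAC and RRPE.

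Newly synthesized RNA was measured by metabolic labeling with 4-thiouracil (4tU) for 6 min followed by pull-down and sequencing (nsRNA-seq), in 30 libraries that form 10 groups of 3 biological replicates. All strains were W303 cells of mating type a grown at 30°C in rich medium. WT cells and *med16*Δ cells, in which *LEU2* replaces *MED16*, received neither auxin nor vehicle, and the deletion strain also differs from WT in carrying *lys2*. The degron strains express the plant ubiquitin ligase component OsTIR1 from the *GPD1* promoter at *leu2*, and carry an IAA7 degron tag on Med16 (Med16-AID), on Med15 (Med15-AID), on both (Med15/16-AID), or on Mot1 and Med16 (Mot1/Med16-AID). Each degron strain was given 0.5 mM of the auxin 3-IAA or the vehicle DMSO (1 part in 2000) for 30 min. Med16 and Med15 belong to the tail module of Mediator, the coactivator complex that links activators to RNA polymerase II, and Mot1 is an ATPase that removes TATA-binding protein from DNA. None of these libraries comes from a treated strain with OsTIR1 but without a degron, so effects of 3-IAA itself cannot be told apart from depletion. The libraries were deposited in 2 sets, 1 with WT, *med16*Δ and Med16-AID and 1 with the remaining strains. Set and strain cannot be told apart, so levels were compared within a set only.

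Sense counts totalled 3838508 to 6912702 per library, with a median of 4731420, and antisense counts were 5.55% to 6.62% of them. Levels are given as CPM, the count of a gene per library total after scaling. *MED16* (named *SIN4* in the annotation) was at 185, 209 and 213 CPM in WT and at 3.71, 2.67 and 2.26 CPM in *med16*Δ. A degron removes the protein and not the gene, and *MED16* stayed at 179, 170.2 and 186 CPM in Med16-AID cells with 3-IAA. All log2 fold changes below were set relative to all genes by scaling each library with the trimmed mean of M-values (TMM), and a gene was called changed at an adjusted p under 0.05 in edgeR's quasi-likelihood test. P-values rest on the spread between replicate libraries, estimated for each gene over all groups of a fit (3 libraries per group), not over the compared groups alone. The fits of 12, 18 and 30 libraries left 8, 12 and 20 residual degrees of freedom.

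The module shares promoter sequence. In the 250 bases upstream of the annotated coding start, the PAC core GATGAG (or CTCATC, the other strand) occurred in 51 of 54 members (94.4%) against 17.0% of 5985 windows of all protein-coding genes. The RRPE core AAAAATTT (or AAATTTTT) occurred in 49 members (90.7%) against 13.4%, and both cores in 47 members (87.0%) against 4.996%. These letters do not overlap those of PAC. The letters TATAAA, by contrast, were in 18 members (33.3%) against 43.4% of all windows, on either strand. In 34 members a PAC and an RRPE core lay within 30 bases of each other. Such stretches are printed for the members on which the results turn, 5′ to 3′ on the strand of the gene with both cores in capitals, from the RefSeq sequence of R64 (sacCer3).
*NSR1* (YGR159C), chrVII:807835-807864, minus strand: gtgAAAAATTTgcaagggcagCTCATCgca
*DBP2* (YNL112W), chrXIV:413478-413507, plus strand: ccgatgCTCATCgcagaAAATTTTTccttc
*NOG2* (YNR053C), chrXIV:723271-723300, minus strand: cccgatgCTCATCgcAAAAATTTTTcgctt
*NOP56* (YLR197W), chrXII:545951-545980, plus strand: aagtgAAATTTTTttgagtGATGAGatggg
*IMP3* (YHR148W), chrVIII:393430-393459, plus strand: aaAAAAATTTcactgatataagCTCATCgc
*RPA190* (YOR341W), chrXV:960793-960822, plus strand: AAAAATTTTTtttatttcaaatCTCATCtc
*FAL1* (YDR021W) with PAC, chrIV:486638-486667, plus strand: tttattttatgcGATGAGctagataatagc
*FAL1* with RRPE, chrIV:486733-486762, plus strand: tcaagaggtatAAAAATTTgttcactcaaa
*RRN3* (YKL125W) with PAC, chrXI:208061-208090, plus strand: aaaagatattttGATGAGcatctctcgttt
*MAK5* (YBR142W) with PAC, chrII:528186-528215, plus strand: aacttttccagcGATGAGcttataagaatt

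The core nearest the coding start lay at a median of 117 bases for PAC (range 57 to 204) and 139 bases for RRPE (range 34 to 224). Of the 47 members with both cores, RRPE was the farther one in 39 and the nearer one in 8. *FAL1*, *DBP2* and *NOG2* were among those 8, and in *FAL1* the cores lay far apart, with PAC at 154 and RRPE at 60 bases. *RRN3*, *MAK5*, *MPP10* and *NOC3* had a PAC core and no RRPE core in this window, *UTP4* and *UTP15* had only RRPE, and *UTP22* had neither. These are matches of letters, and binding was not measured at them here.

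The module is highly transcribed. In WT, per kb of coding length, the members ranged from 94.2 CPM per kb for *FAL1*, a DEAD-box helicase of 18S rRNA maturation, to 770.8 for *CBF5*, the pseudouridine synthase of box H/ACA snoRNPs, with a median of 242. The median of 5566 annotated genes was 79.9 CPM per kb, and all 54 members were above it. *NSR1*, yeast nucleolin, was at 740.1 and *NOP56*, a core protein of box C/D snoRNPs, at 624, whereas *RRN3*, the factor that makes Pol I competent to initiate, was at 110.2.

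Lasting loss of Med16 changed 1 member. In *med16*Δ against WT, 1 of 54 members (1.85%) was called higher and 0 were called lower, against 7.97% of all 5710 genes called higher and 9.53% called lower. At an unadjusted p under 0.05 these counts were 3 and 0, and with DESeq2 1 and 0. The median log2 fold change of the members was 0.06 and that of all genes 0.01, and 38 members were above 0. With size factors from the *S. pombe* spike-in these medians were 0.24 and 0.19. On that scale 0 of 54 members were below 0, and 1 was called higher and 0 lower. The shares of all genes on that scale are not given here. The gene called was *DBP2* (YNL112W, chromosome XIV, 413639 to 416281, plus strand, 2 coding exons), a DEAD-box helicase with roles in rRNA processing and mRNA packaging. It was at 569.8, 576 and 655 CPM in WT and at 802, 936 and 778 CPM in *med16*Δ, so that every deletion library was above every WT library. This was a log2 difference of 0.48 (SE 0.10, adjusted p = 0.00158, edgeR's quasi-likelihood test).

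The members next in order did not pass. *SSF1*, a 60S assembly factor, was at 200.4, 205 and 234 CPM in WT and 228, 264 and 262 in *med16*Δ, with groups that overlapped (log2 0.24, adjusted p = 0.137). *HAS1*, a helicase of both subunits, was at 273, 298 and 336 against 365, 377 and 316 CPM, also with overlap (log2 0.22, adjusted p = 0.218). At the low end, *NHP2*, a box H/ACA protein, was at 284, 285 and 263 CPM in WT and 238, 259.8 and 249 in the deletion (log2 -0.15, adjusted p = 0.236). There the 3 deletion libraries were all below WT, by a margin within the spread of the test. *UTP22* of the SSU processome was at 410.1, 449.7 and 444 against 471, 393 and 328 CPM, with the 3 deletion libraries spread around the WT values (log2 -0.13, adjusted p = 0.566). *RPF2*, which brings the 5S particle to the 60S precursor, was at 279, 279 and 282 against 263, 263 and 266 CPM (log2 -0.09, adjusted p = 0.521), the lower 3 values being those of the deletion.

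Few genes of the wider pathway were called. Of 31 other SSU factors 1 was called higher (*UTP30*, log2 0.41), of 39 other 60S factors 2 were called higher (*RRP14*, 0.32, and *NOP13*, 0.27), and of 11 other Pol I genes 2 were called higher. The latter were *RRN11* (log2 0.62, adjusted p = 0.0043, edgeR) and *RRN7* (0.44, adjusted p = 0.0126), subunits of the core factor that positions Pol I. None of these 3 lists had a gene called lower, and of 132 ribosomal protein genes 3 were called lower, with *RPL10* the lowest at -0.52.

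**Figure D1:**
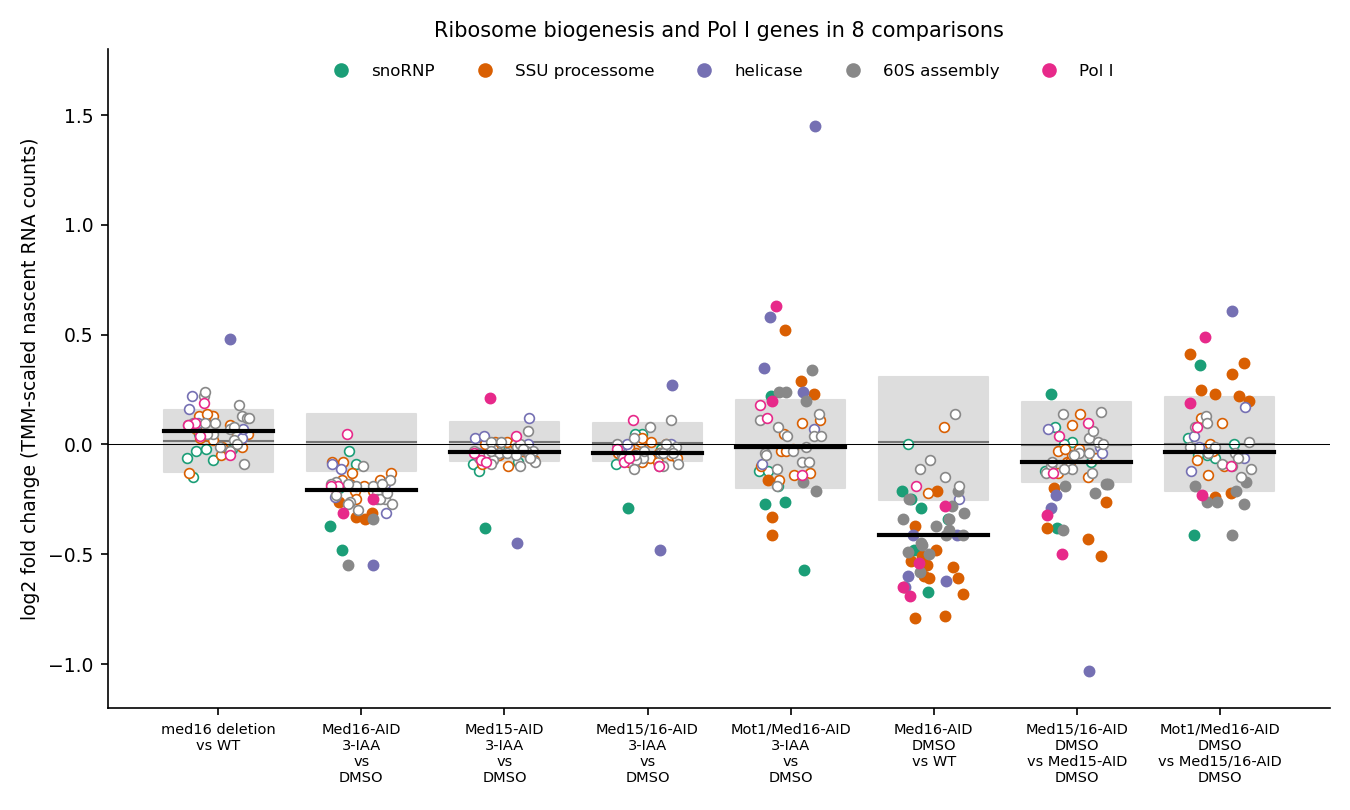
Log2 fold change of each of the 54 members (points, coloured by role; filled where the adjusted p is under 0.05) in 5 comparisons of loss or depletion and 3 of strains in DMSO. The black line is the median of the members, and the grey box and line are the middle 50% and median of all genes tested; the members sit below the box's centre in Med16-AID (median -0.21) and in Med16-AID DMSO against WT (median -0.41).

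After acute depletion of Med16 the module was slightly lower relative to all genes. Comparing 3-IAA with DMSO in Med16-AID, 0 members were called higher and 11 (20.4%) were called lower, against 4.08% and 6.99% of all genes. At an unadjusted p under 0.05, 0 members were higher and 29 lower in the same fit, and DESeq2 called 0 and 19. The median was -0.21 against 0.01 for all genes, 53 of 54 members were below 0 (47.9% of all genes were), and the middle 50% of the members spanned only 0.09 on the log2 scale. The 11 included *NSR1* and *NOP58* among the snoRNP genes, *IMP4*, *UTP9*, *KRR1* and *MPP10* of the SSU processome, the helicase *DBP2*, *NOG2* and *NOP15* of 60S assembly, and *RPA43* and *RPA49* of Pol I. The drop was thus spread over all 5 roles, whose medians lay between -0.22 and -0.19.

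*DBP2* (YNL112W) was at 339.9, 409 and 421 CPM with DMSO and at 271, 262 and 264 CPM with 3-IAA, without overlap (log2 -0.55, SE 0.10, adjusted p = 0.00165, edgeR's quasi-likelihood test). *NOG2*, a GTPase of late nuclear 60S maturation, went from 369, 440.4 and 499 to 295, 282 and 319 CPM (log2 -0.55, SE 0.11, adjusted p = 0.00347). *DBP2* and *NOG2*, which fell furthest, are also the 2 members whose coding sequence is split by an intron. Genes with introns were not compared over all genes, and a link with the fall was not tested. *NSR1* was at 625, 689 and 663 CPM with DMSO and 470.0, 486 and 457 with 3-IAA, again without overlap (log2 -0.48, SE 0.08, adjusted p = 8.73e-04). *NOP58*, the partner of *NOP56* in box C/D snoRNPs, followed at 749.5, 796 and 699.9 against 579, 586 and 577 CPM (log2 -0.37, adjusted p = 0.00559). In each of these 4 genes the 3 libraries with 3-IAA lay close together and the DMSO libraries were spread more widely.

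Of the Pol I genes, *RPA43*, the stalk subunit that contacts Rrn3, was at 127, 132 and 145 CPM with DMSO and 113, 109 and 104 with 3-IAA (log2 -0.31, adjusted p = 0.0202, edgeR), its largest difference among the depletions. *RPA49*, which with Rpa34 aids elongation, was at 348, 376 and 400.2 against 318, 326 and 300.5 CPM (log2 -0.25, adjusted p = 0.0465). Both genes fell without overlap, but of 16 alternative settings the call held in 10 for *RPA43* and in 7 for *RPA49*. *RPA190* and *RPA135*, which form the catalytic center, both had log2 -0.19 and did not pass (adjusted p = 0.347 and 0.335).

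The members at the other end did not move beyond their spread. *RRN3* was the only member above 0, at 119, 130.5 and 180.2 CPM with DMSO and 126, 137 and 183 with 3-IAA (log2 0.05, adjusted p = 0.859). *GAR1*, a box H/ACA protein, was at 227, 201 and 171 against 183, 208 and 195 CPM (log2 -0.03, adjusted p = 0.881) and *UTP15*, of the complex that binds the precursor first, at 175, 191 and 219 against 176, 178 and 198 CPM (log2 -0.08, adjusted p = 0.649). In all 3 the groups overlapped. *FAL1* was at 83.5, 92.2 and 109.5 against 73.1, 66 and 90.2 CPM (log2 -0.31, adjusted p = 0.09), with 1 library of each group inside the range of the other.

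Several measures moved with this result. The first DMSO library stood apart, with a module median 0.25 below the mean of the other 2 DMSO libraries on the log2 scale, against 0.21, 0.23 and 0.20 for the 3 libraries with 3-IAA below the DMSO mean. A list of 20 stress genes had 6 called higher and 0 called lower with 3-IAA (median 0.40), and its median in the first DMSO library was 0.21 above the other 2. Without that library 26 members were called, and without any 1 of the other 5 libraries of this comparison 5 to 7. Ribosomal protein genes fell as well, 74 of 132 with a median of -0.33. The part of these measures in the result was not tested.

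These calls hold only relative to all genes. With the size factors from the *S. pombe* spike-in, the median of all genes was 0.21 and that of the members 0.01, 25 of 54 members were below 0, and 0 members were called, while 151 genes in all were called higher and 20 lower. *NOP58* was then at -0.16, *MPP10* at -0.06 and *RPA49* at -0.04, and *DBP2* was the lowest member at -0.34. Outside the module, 9 of 39 other 60S factors (lowest *RRP1*, -0.43), 4 of 31 other SSU factors (lowest *DBP8*, -0.39) and 1 of 11 other Pol I genes (*RPA34*, -0.41) were called lower and 0 higher, with medians of -0.20, -0.17 and -0.20. Of the paralogs *DOT6* and *TOD6*, whose products repress genes with PAC sites, *DOT6* was called higher (log2 0.42, adjusted p = 0.0261, edgeR) and *TOD6* was at -0.26 (adjusted p = 0.275). *DOT6* was also called higher in Med15-AID (0.30, adjusted p = 0.0377, edgeR), and *TOD6* in *med16*Δ (0.50, adjusted p = 0.0155, edgeR). The part of these repressors in the changes of the members was not tested.

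**Figure D2:**
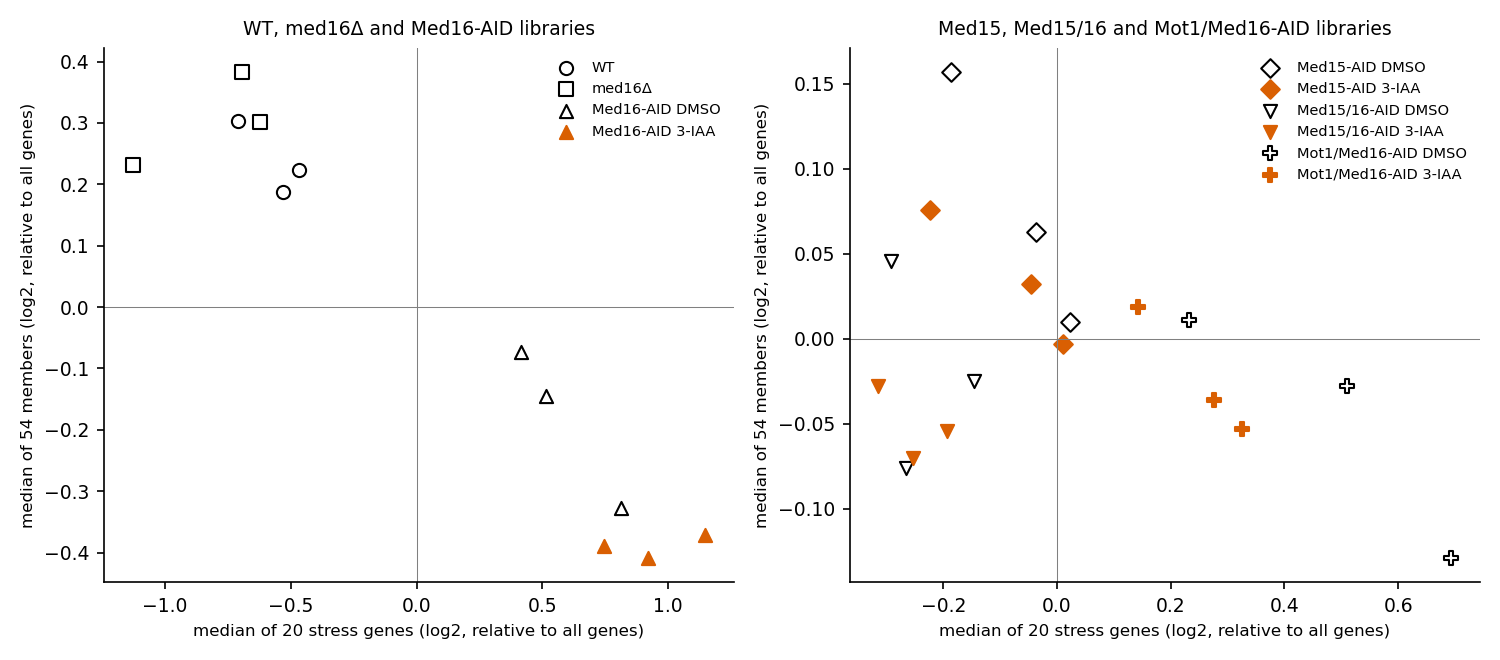
Median log2 level of the 54 members (vertical axis) against that of 20 stress genes (horizontal axis) in each library, both relative to the mean over the libraries of its set and to the median of all genes. In the first set WT and *med16*Δ libraries lie above 0 on the vertical axis and all Med16-AID libraries below it, with the first DMSO library (members -0.33, stress genes 0.81) beside those with 3-IAA.

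Med15 depletion left most of the module in place. In Med15-AID, 1 member was called higher and 2 were called lower, against 4.00% and 9.68% of 5803 genes, with a median of -0.04 for the members and 0.01 for all genes. *DBP2* was again the lowest, at 526, 561 and 462 CPM with DMSO and 372, 385 and 375 with 3-IAA (log2 -0.45, SE 0.08, adjusted p = 2.73e-04, edgeR's quasi-likelihood test). *NSR1* was at 761, 700.4 and 645 against 528, 521 and 572 CPM (log2 -0.38, SE 0.08, adjusted p = 0.00122). In both genes every 3-IAA library was below every DMSO library. *RRN3* went the other way, from 162, 154 and 158 to 181, 189 and 179 CPM without overlap (log2 0.21, SE 0.05, adjusted p = 0.00873), a call that was lost without the second DMSO library or the second 3-IAA library, at log2 0.19 in each case.

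The rest lay within 0.12 of 0 on either side. *NHP2* was the third lowest at 331, 285 and 306 against 299, 271 and 280.3 CPM (log2 -0.12, adjusted p = 0.452), *FAL1* the second highest at 61.5, 61.6 and 56.2 against 65, 67.5 and 62.8 CPM (log2 0.12, adjusted p = 0.448), and *MAK16*, a 60S factor, the third highest at 226 ± 24.0 against 236 ± 12.6 CPM (SD, n = 3, log2 0.06, adjusted p = 0.726). *NHP2* and *MAK16* had overlapping groups, and the *FAL1* groups were just separate. No gene of the lists of other SSU (31), other 60S (39) and other Pol I (11) genes was called in either direction by edgeR (1 higher and 1 lower at an unadjusted p under 0.05), whereas 79 of 132 ribosomal protein genes were called lower (median -0.25). With the spike-in factors, which put the median of all genes at 0.22 and that of the members at 0.17, 12 members were called higher and 1 lower. The shift of all genes enters these counts, and the shares of all genes called on that scale are not given here.

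Relative to all genes, joint depletion of Med15 and Med16 gave nearly the same picture. In Med15/16-AID, 1 member was called higher and 2 lower, against 4.00% and 8.05% of all genes, and the median was again -0.04 against 0.01. With the spike-in factors the 2 strains differed more, in the median of all genes as well as in that of the members. The medians here were then 0.08 for the members and 0.12 for all genes. On that scale 1 member was called higher and 1 lower, against 12 and 1 in Med15-AID. The shift of all genes enters these counts. The shares of all genes called on that scale are not given here, so the counts are no result about the module. *DBP2* was at 261, 239 and 259 CPM with DMSO and 212, 154 and 174 with 3-IAA (log2 -0.48, SE 0.09, adjusted p = 2.32e-04, edgeR's quasi-likelihood test), all 3 treated libraries being lower. *NSR1* was at 579, 546 and 494 against 491, 399.9 and 427 CPM (log2 -0.29, SE 0.08, adjusted p = 0.0133), where the groups were separate by a narrow margin. *FAL1* rose from 58.3, 51.8 and 63.5 to 66.7, 70.5 and 73.8 CPM (log2 0.27, SE 0.08, adjusted p = 0.0309), with every treated library above the controls.

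Both calls beside *DBP2* were close to the threshold. Without the first DMSO library, the second 3-IAA library or the third 3-IAA library, *DBP2* was the only member called. Next in order came *NOG2* at 433, 409 and 416 against 398, 373 and 396 CPM (log2 -0.11, adjusted p = 0.276), *RRN3* at 114, 106 and 114 against 123, 118 and 120.3 CPM (log2 0.11, adjusted p = 0.254) and *MAK16* at 254, 247 and 247 against 243, 289 and 278 CPM (log2 0.11, adjusted p = 0.427), none of which passed. Of the other lists, 15 of 132 ribosomal protein genes and *HMO1*, a Pol I associated protein (-0.26), were called lower, and no other SSU or 60S factor was called by edgeR in either direction (1 higher and 1 lower at an unadjusted p under 0.05).

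Depletion of Mot1 with Med16 changed members in both directions, as it did genes in general. In Mot1/Med16-AID, 14 members (25.9%) were called higher and 8 (14.8%) lower, against 21.7% and 23.1% of all genes, with medians of -0.01 for both. The middle 50% of the members spanned 0.32 on the log2 scale against 0.40 for all genes. Helicases were mostly higher (4 of 6, median 0.30), as were 2 of 5 Pol I genes (median 0.18), whereas 3 of 7 snoRNP genes were lower and 1 higher (median -0.19). The SSU processome had 3 in each direction, and 60S assembly had 4 higher and 2 lower.

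*FAL1* (YDR021W, chromosome IV, 486804 to 488003, plus strand, no intron) had the largest change of any member in any depletion. It was at 70.7, 63.7 and 61.7 CPM with DMSO and 193, 168 and 175 with 3-IAA, a 2.73-fold rise (log2 1.45, SE 0.08, adjusted p = 3.51e-12, edgeR's quasi-likelihood test). *RRN3* rose 1.54-fold, from 151, 166 and 154 to 239.8, 247 and 239.6 CPM (log2 0.63, SE 0.05, adjusted p = 3.35e-09). *MAK5*, a helicase of the 60S pathway, rose from 214, 188 and 167 to 273, 292 and 285 CPM (log2 0.58, SE 0.08, adjusted p = 2.79e-06). In these 3 genes the lowest treated library was well above the highest control. *IMP3*, which holds the U3 snoRNA to the precursor, came next at 97.3, 97.7 and 96.2 against 160.3, 126 and 131 CPM (log2 0.52, adjusted p = 4.74e-06), with tight controls and 1 high treated library. Further members called higher were *HAS1*, *NOP16*, *KRR1*, *NOP7*, *NOC2*, *DBP2*, *UTP20*, *NSR1*, *NOG1* and *RPA43*, from log2 0.35 for *HAS1* to 0.20 for *RPA43*.

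*NOP56* (YLR197W) fell furthest, to 0.671 of its control level, from 656, 630.0 and 559.5 to 410.1, 415 and 414 CPM (log2 -0.57, SE 0.07, adjusted p = 1.87e-07, edgeR's quasi-likelihood test). *SOF1*, a WD-repeat protein of the SSU processome, was at 236, 243 and 228 against 178, 169 and 187 CPM (log2 -0.41, SE 0.06, adjusted p = 6.67e-06). *UTP15* was at 247, 254 and 242 against 189.9, 194 and 209 CPM (log2 -0.33, SE 0.05, adjusted p = 3.41e-05). None of the 3 genes had overlapping groups, and the treated *NOP56* libraries lay within 5 CPM of each other. *NHP2*, *NOP1*, *RPF2*, *NOP4* and *MPP10* were also called lower, from -0.27 to -0.16. The largest Pol I subunits, *RPA190* (log2 0.18) and *RPA135* (0.12), were not called.

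The first gene beside *FAL1*, *DAS2*, which is transcribed away from *FAL1* on the opposite strand, was also called higher (log2 0.36, SE 0.08, adjusted p = 9.37e-04, edgeR). *ATG31*, on the other side, was not (log2 -0.19, adjusted p = 0.312). Among other genes of the pathway, 5 of 31 other SSU factors were called higher (*BFR2* the highest, 0.56) and 4 lower (*UTP14* the lowest, -0.79), 12 of 39 other 60S factors higher (*SDA1*, 0.38) and 5 lower (*RRP8*, -0.44), and 2 of 11 other Pol I genes higher (*UAF30*, 0.51) and 3 lower (*RPA14*, -0.70). Both repressors of PAC-site genes were called, *DOT6* lower (-0.71) and *TOD6* higher (0.45), and their part in the changes of the members was not tested. *MOT1* itself was at 819, 726 and 814 CPM with DMSO, in a strain whose *MOT1* is tagged, and at 1091, 1395 and 1213 with 3-IAA.

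**Figure D3:**
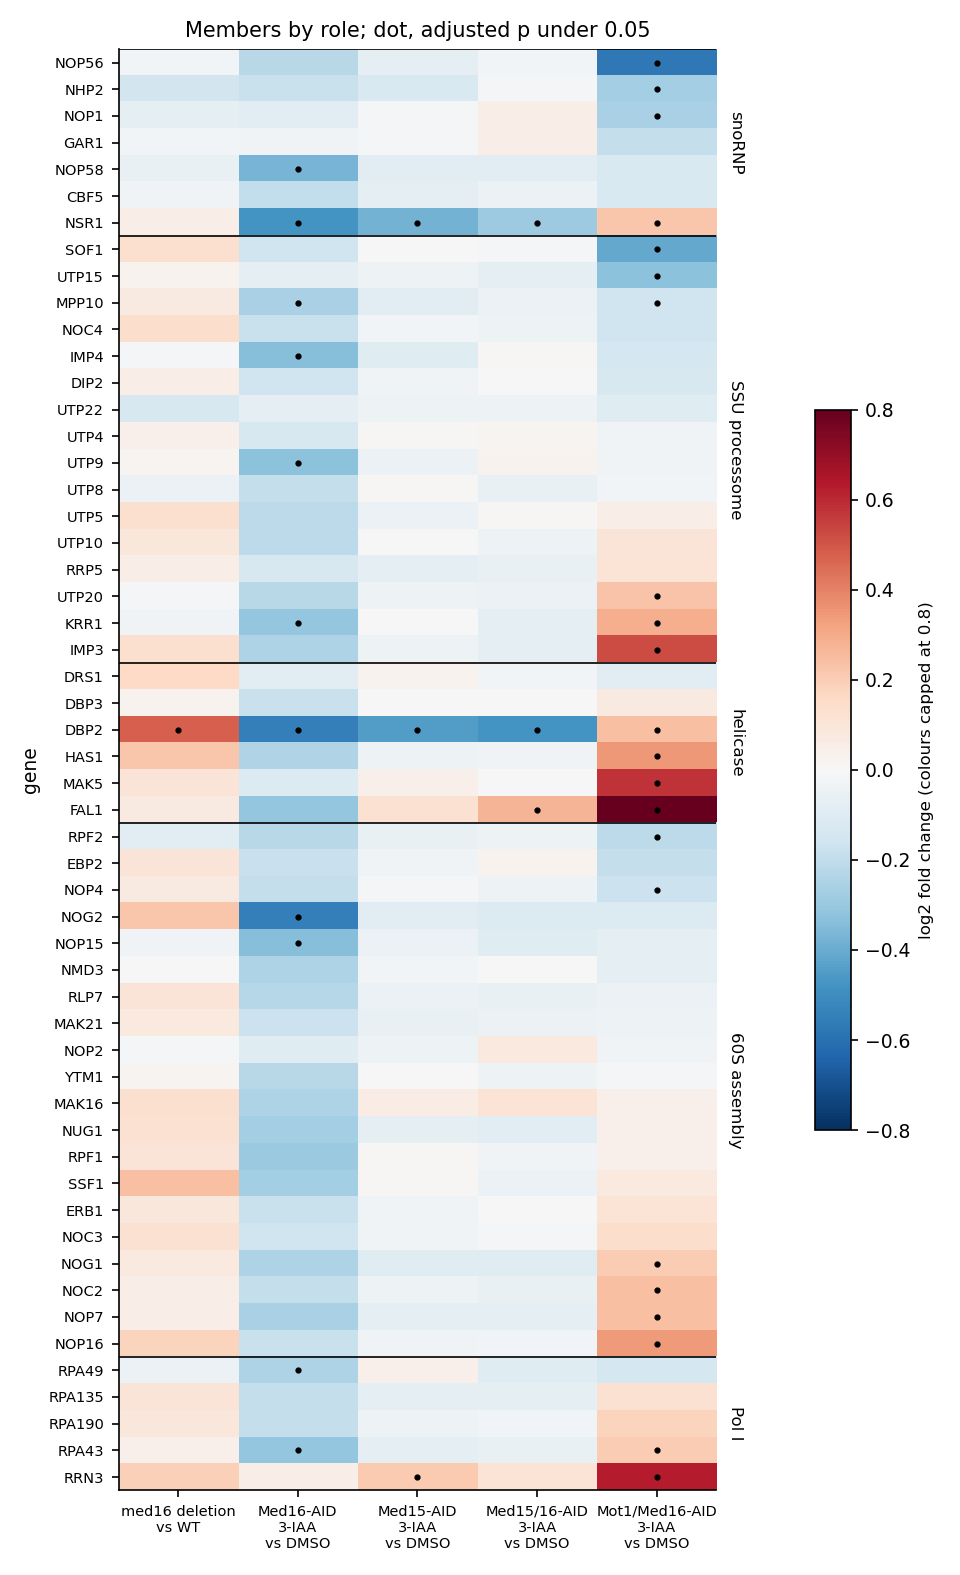
Log2 fold change of the 54 members (one line each, grouped by role) in the 5 comparisons of loss or depletion, from blue (lower) to red (higher), with colours capped at 0.8 and a dot where the adjusted p is under 0.05. The Med16-AID column is blue in nearly every line, and the Mot1/Med16-AID column holds 14 called higher and 8 called lower.

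Over the 4 depletions, 26 members were called in none, 21 in exactly 1, 5 in exactly 2 and 2 in all 4. The pair called in all 4 was *DBP2* and *NSR1*, which were lower in the 3 depletions without Mot1 and higher in Mot1/Med16-AID. In Mot1/Med16-AID, *DBP2* was at 374, 407 and 377 CPM with DMSO and 431, 487 and 451 with 3-IAA (log2 0.24, SE 0.08, adjusted p = 0.021, edgeR's quasi-likelihood test), and *NSR1* at 716, 737 and 623 against 786, 825 and 803 CPM (log2 0.22, SE 0.08, adjusted p = 0.0279). In both the treated libraries were all above the controls, and each call was lost in 3 of the 6 cases with 1 library left out (at log2 values of 0.19 to 0.23 for *DBP2* and 0.15 to 0.22 for *NSR1*). *KRR1* and *RPA43* had the same pair of directions in Med16-AID and Mot1/Med16-AID, so that 4 of the 11 members lower in the former (36.4%) were among the 14 higher in the latter (28.6%). *MPP10* was called lower in both strains. Of all genes, 21.7% were called higher in Mot1/Med16-AID, whatever their direction in Med16-AID. Calls shared between depletions were not counted over all genes. Whether these counts differ from those of other genes is therefore not known, and they cannot be read as a trait of the module.

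*DBP2* (YNL112W) has a neighbor that was called in the same direction in the 4 depletions and was not called in the deletion. *CYB5*, the next gene on chromosome XIV, which runs toward *DBP2* on the other strand, was looked at after the values of *DBP2* were known and had log2 -0.55, -0.40 and -0.43 in the degron strains for Med16, for Med15 and for both, and 0.15 in Mot1/Med16-AID, all past the threshold (adjusted p from 1.40e-05 to 0.0444, edgeR). In *med16*Δ, where *DBP2* was higher at 0.48, *CYB5* did not pass (log2 0.22, adjusted p = 0.225). The library kit and the counts are stranded. On the other side of *DBP2*, *RPC19*, which encodes a subunit shared by Pol I and Pol III, passed in Mot1/Med16-AID only (log2 0.32, adjusted p = 0.00453). The neighbors of *NSR1* did not follow it through the 4 depletions. *MTR3* passed in Mot1/Med16-AID only (log2 0.20, adjusted p = 0.0156, edgeR). *RTS3* was called lower in Med15-AID (-0.40) and Med15/16-AID (-0.46), and was not called in Med16-AID (0.18) or Mot1/Med16-AID (-0.05). In *med16*Δ, *RTS3* was called lower (-0.89) and *MTR3* was not called (0.08).

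**Figure D4:**
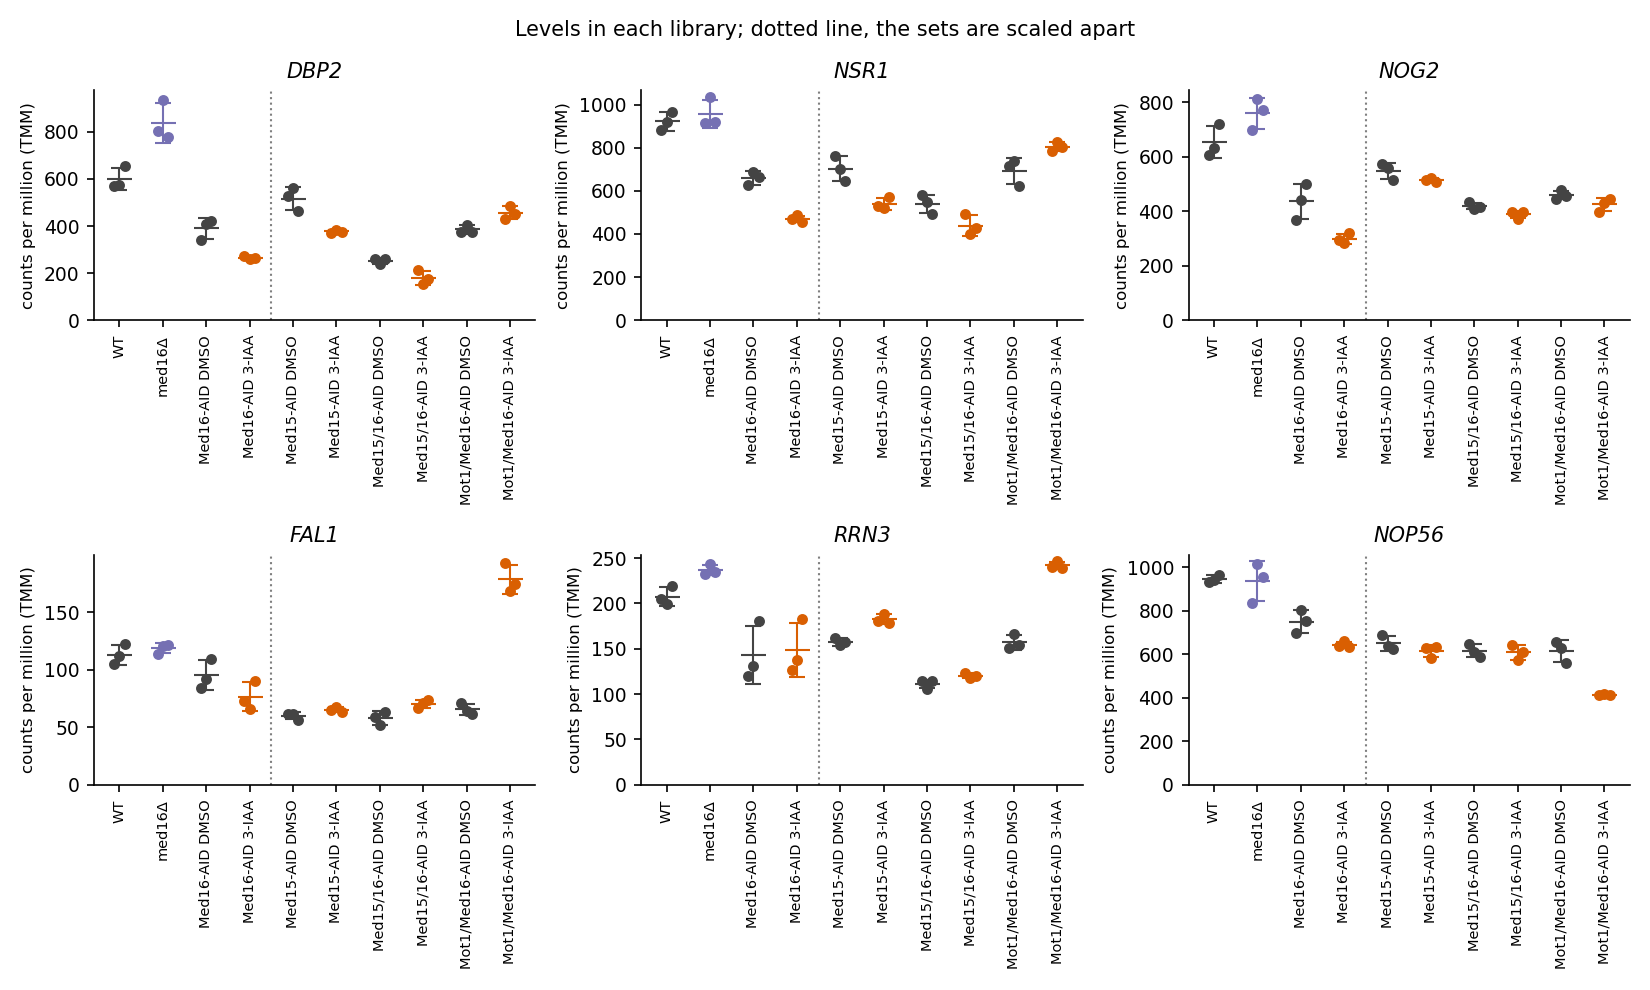
Levels of 6 members in every library (points, in TMM-scaled CPM) with the group mean and SD (lines, n = 3). *DBP2* and *NSR1* are lower with 3-IAA in the first 3 degron strains and higher in Mot1/Med16-AID, *FAL1* rises only there by more than 2-fold, and the dotted line parts the 2 sets, which are scaled apart.

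Differences between responses were tested as contrasts of 4 groups in 1 fit of 30 libraries and 5844 genes. The response to acute Med16 depletion minus that to the deletion had 0 members called higher and 21 (38.9%) lower, against 6.81% and 6.69% of all genes, with a median of -0.28 against -0.01 (0 and 38 at an unadjusted p under 0.05, 0 and 28 with DESeq2). *DBP2*, higher in the deletion and lower in the depletion, differed by -1.04 (SE 0.13, adjusted p = 1.21e-06, edgeR's quasi-likelihood test) and *NOG2* by -0.77 (SE 0.11, adjusted p = 1.54e-05). The Med15/16-AID response minus the Med15-AID response had 0 members called in either direction, against 0.137% of all genes called higher and 0.0513% lower, and also 0 at an unadjusted p under 0.05 or with DESeq2. The members' differences ran from -0.13 (*RPA49*) to 0.16 (*FAL1*), with standard errors of 0.08 to 0.18.

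The Med15-AID response minus the Med16-AID response was above 0 for all 54 members (median 0.15, all genes -0.01), of which 1 was called higher and 0 lower, against 0.992% and 3.71% of all genes (14 and 0 at an unadjusted p under 0.05, 3 and 0 with DESeq2). That gene was *NOG2*, with 0.45 (SE 0.11, adjusted p = 0.0153, edgeR's quasi-likelihood test). Between 0 and 8 members passed when 1 library was left out, with 8 in the absence of the first Med16-AID DMSO library and 0 in the absence of the third, or of the third Med15-AID DMSO library. The Mot1/Med16-AID response minus the Med16-AID response had 20 members (37.0%) called higher and 2 lower, against 14.0% and 15.3% of all genes, with a median of 0.25 against -0.01. *FAL1* led with 1.76 (SE 0.14, adjusted p = 3.72e-10), before *DBP2* (0.79), *IMP3* (0.77, adjusted p = 2.36e-05), *NSR1* (0.70) and *MAK5* (0.68). The pair called lower was *NOP56* (-0.36, adjusted p = 0.00715) and *SOF1* (-0.26, adjusted p = 0.0309).

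Before depletion, the module already differed between strains. In Med16-AID with DMSO against WT, 0 members were called higher and 44 (81.5%) lower, against 26.0% and 23.2% of all genes, with a median of -0.41 against 0.01 (0 and 48 at an unadjusted p under 0.05, 0 and 45 with DESeq2). Strain, degron and DMSO all differ in this comparison and cannot be told apart. *RPA135* was at 798, 949.5 and 947 CPM in WT and 473, 626 and 576 in Med16-AID (log2 -0.69, SE 0.12, adjusted p = 1.90e-04, edgeR's quasi-likelihood test), and *RPA190* at 1082, 1232 and 1293 against 608, 829 and 863 CPM (log2 -0.65, SE 0.12, adjusted p = 4.31e-04). *RPA49* was at 446, 454 and 464 against 348, 376 and 400.2 CPM (log2 -0.28, adjusted p = 0.00739). Every Med16-AID library was below every WT library in all 3 genes. *UTP15* (-0.79) and *UTP10* (-0.78), scaffold proteins of the SSU processome, were the lowest, and *NOP16* (0.14), *KRR1* (0.08) and *NHP2* (0.00) were the 3 members not below 0.

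Coding length and stress genes moved with this difference. Across the 54 members, Spearman's correlation of log2 fold change with coding length was -0.73 (-0.47 across 5566 genes, which are not independent), and the 14 longest members (2133 bases or more) had a median of -0.61 against -0.20 for the 14 shortest (1200 bases or less). Of 20 stress genes, 18 were called higher (median 1.06, *SPI1* the highest at 3.40) and 0 lower. Their part in the difference was not tested. In the depletions the correlation with length across the members was 0.39 in Med16-AID and between 0.01 and 0.19 in the other 3.

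The other strain comparisons, both in the second set, were mixed in these features. Med15/16-AID against Med15-AID, both in DMSO, had 1 member called higher (*NHP2*, 0.23) and 16 (29.6%) lower, against 21.6% and 20.2% of all genes. *DBP2* was the lowest by far, at 526, 561 and 462 CPM in Med15-AID and 261, 239 and 259 in Med15/16-AID (log2 -1.03, SE 0.09, adjusted p = 4.43e-10, edgeR's quasi-likelihood test), before *UTP20* (-0.51) and *RRN3* (-0.50). The correlation with length across the members was -0.57 (-0.28 across all genes), and stress genes went both ways, with 6 of 20 called higher and 7 lower (median -0.18). Mot1/Med16-AID against Med15/16-AID, both in DMSO, had 11 members (20.4%) called higher and 11 lower, against 25.7% and 24.3% of all genes, so that both shares were below those of all genes. They were led by *DBP2* (0.61), *RRN3* (0.49) and *UTP22* (0.41) and, at the low end, *NHP2* (-0.41) and *NOP15* (-0.41). Here the correlation was 0.61 (0.42 across all genes), and 17 of 20 stress genes were called higher. These comparisons share control groups with the depletions of the same strains.

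**Figure D5:**
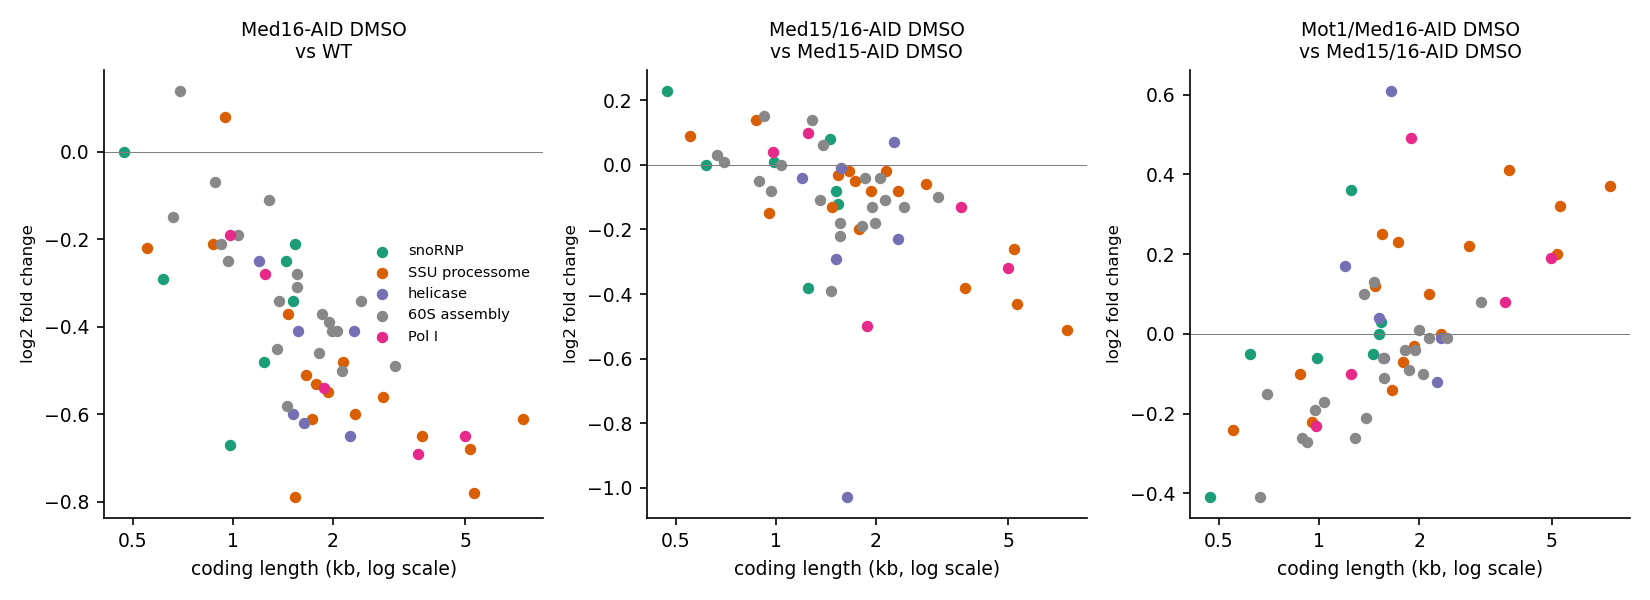
Log2 fold change of each member between strains in DMSO (or WT, untreated) against coding length in kb (log scale), coloured by role. Longer members are lower in the first 2 panels (Spearman's correlation -0.73 and -0.57) and higher in the last (0.61).

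Members were also compared by promoter sequence and position, as a description. In Med16-AID the 51 members with a PAC core had a median of -0.22 and the 3 without one -0.08, and in Mot1/Med16-AID the medians were 0.04 and -0.10. For RRPE, with 49 members against 5, they were -0.22 and -0.11 in Med16-AID and -0.02 and 0.14 in Mot1/Med16-AID, where *RRN3* and *MAK5* are among the 5. Within the module 2 pairs of genes are next to each other. *RPA43* and *RPA190*, which encode subunits of the same enzyme, are transcribed away from each other from 804 bases on chromosome XV (960183 to 960986), and had log2 -0.31 and -0.19 in Med16-AID and 0.20 and 0.18 in Mot1/Med16-AID. *RPF1* and *GAR1* converge on chromosome VIII, and had -0.30 and -0.03 in Med16-AID and 0.04 and -0.19 in Mot1/Med16-AID.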

How the data were processed

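Per the labels and the study's methods, nascent RNA from 30 libraries was sequenced after 4tU labeling with a *Schizosaccharomyces pombe* spike-in. The authors mapped the reads to sacCer3 with STAR 2.6.1a and deposited raw counts per gene (6692 genes; unstranded, sense and antisense columns), without normalization or filtering. The sense counts were used. The authors' own DESeq2 comparisons served only to recover their spike-in size factors for an alternative scaling.

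Groups came from the labels. The 12 libraries of WT, *med16*Δ and Med16-AID and the 18 of the other strains were fitted apart (5710 and 5803 genes), and differences between responses in 1 fit of all 30 (5844 genes), with edgeR 4.0.16 under R 4.3.3 (TMM, filterByExpr, glmQLFit and glmQLFTest, prior count 0.125, Benjamini-Hochberg over all genes tested). CPM are counts relative to TMM-scaled library totals. Replicate shifts used log2 CPM with 0.5 added per count. On simulated data, the test on the 12 libraries found 81% of genes changed by a log2 of 0.5 and 99% of those changed by 1 (5679 genes, 16 false calls). That on the 18 libraries found 95% and 100% (5758 genes, 9 false calls). Smaller changes were not simulated, so these shares do not cover changes such as the members' median of -0.21 in Med16-AID.

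The 54 members and all gene lists (hand-written) were chosen with earlier results of these data known. Genes named are the Pol I members and *FAL1*, the 3 highest and 3 lowest members of each comparison, those called most often, those with the lowest p in each tested difference, and the called gene with the highest or lowest value of each other list. Neighbors of *FAL1*, *DBP2* and *NSR1* are named as well. Promoter windows were read from the RefSeq R64 genome upstream of coding starts. Alternatives were RLE factors, DESeq2 1.42.0, spike-in factors, TMM on genes outside the lists, other filters (none, or at least 10 counts), unstranded counts, other sets of libraries, a replicate block and leaving out each library. Counts on the antisense strand were tested apart. Other assays of the study were not analysed here.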

Additional observations from a re-analysis of the deposited data

Results flagged for a closer look

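Responses that differed between strains by their own test are listed here with their values. The response to acute depletion of Med16 and that to its deletion differed in 21 of 54 members, most in *DBP2* (log2 difference -1.04, SE 0.13) and *NOG2* (-0.77, SE 0.11). Between 7 and 35 members passed when 1 library was left out, with 35 in the absence of the first Med16-AID DMSO library and 7 in the absence of the third. The Med15-AID and Med16-AID responses differed in 1 member, *NOG2* (0.45, SE 0.11). The Mot1/Med16-AID and Med16-AID responses differed in 22 members, with *FAL1* (1.76, SE 0.14) and *IMP3* (0.77, SE 0.12) at the lowest p.

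On the antisense strand, which the comparisons above do not use, 13 members had enough counts to be tested in each set of libraries, 9 of them in both. The shares called were close to or below those of all genes tested on that strand. Antisense counts over *NOC4* were higher with 3-IAA in Med15/16-AID (3.29 ± 0.137 against 1.21 ± 0.238 CPM, SD, n = 3, log2 1.44, adjusted p = 0.0111, edgeR's quasi-likelihood test), the 1 call among 13 members (7.69%) against 6.61% of 3161 genes. In Mot1/Med16-AID, 3 of 13 members (23.1%) were called against 23.2% of 3161 genes. There antisense counts were higher over *DBP3* (7.62 ± 2.22 against 3.05 ± 0.729 CPM, SD, n = 3, log2 1.31, adjusted p = 5.04e-04, edgeR) and over *NOP15* (7.96 ± 1.47 against 4.33 ± 1.69 CPM, SD, n = 3, log2 0.86, adjusted p = 0.00873, edgeR). Over *NOP56* they were lower (log2 -0.73, adjusted p = 0.0102, edgeR). Over *DBP2* they were higher in Med15/16-AID than in Med15-AID, both in DMSO (2.08 ± 0.346 against 0.413 ± 0.226 CPM, SD, n = 3, log2 2.27, SE 0.61, adjusted p = 0.00312, edgeR). The Med15-AID level rests on very few counts, so the size of this difference is uncertain. Sense counts of *DBP2* differed by -1.03 in the same comparison, and a link between the strands was not tested. *RRN3* was also called there (log2 1.00, adjusted p = 0.0466), which makes 2 of 13 members (15.4%) against 19.3% of genes. In Mot1/Med16-AID against Med15/16-AID, both in DMSO, *DBP2* was the 1 member called, lower at log2 -1.43 (adjusted p = 0.0473, edgeR), against 20.3% of genes. In Med16-AID with DMSO against WT, *MPP10* (-1.77), *MAK5* (-1.58) and *NOP56* (-0.71) were lower, 3 of 13 members (23.1%) against 24.8% of 2905 genes. In *med16*Δ, Med16-AID and Med15-AID the lowest adjusted p of a member was 0.211, 0.283 and 0.083 (edgeR), while 8.50%, 2.41% and 3.92% of genes passed. For the 37 members tested in neither set such changes were not detectable at this depth.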

How the results depend on the processing

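Of 167 calls of a member in a comparison, 0 changed direction under the settings run for them. DESeq2 and RLE factors kept all 167 past the threshold. Calls were lost with only the groups compared (39 of 167), the spike-in factors (13 lost, 5 kept), no filter (8), unstranded counts (8), all 30 libraries in one fit (7 lost, 116 kept), TMM on genes outside the lists (3) and at least 10 counts in every library (1), and in 245 cases with 1 library left out, against 1021 cases kept. Counts of members called moved by over 1.5 times as follows. In *med16*Δ the fit of 30 libraries gave 3 in place of 1. In Med16-AID the count of 11 became 19 with DESeq2, 6 with only the groups compared, 0 with the spike-in factors, 25 in the fit of 30 libraries and 5 to 26 with 1 library left out. In Med15-AID the count of 3 became 13 with the spike-in factors (2 to 3 with 1 library left out), and in Med15/16-AID it became 1 to 3. For Med16-AID minus *med16*Δ the count of 21 became 5 with only the groups compared and 7 to 35 with 1 library left out. For Med15-AID minus Med16-AID the count of 1 became 2 with RLE factors, 3 with DESeq2, 2 with at least 10 counts, 0 with only the groups compared and 0 to 8 with 1 library left out. For Mot1/Med16-AID the count ran from 18 to 29, for its difference from Med16-AID from 16 to 31, and for the 3 strain comparisons from 37 to 49, 11 to 19 and 15 to 24. The median of the members relative to all genes ran from -0.29 to -0.17 in Med16-AID, -0.07 to -0.01 in Med15-AID, -0.07 to -0.03 in Med15/16-AID, -0.03 to 0.04 in Mot1/Med16-AID and 0.01 to 0.08 in *med16*Δ. The spike-in factors scale each library as a whole and so move this difference little. They put the median of all genes at 0.19 in *med16*Δ, 0.21 in Med16-AID, 0.22 in Med15-AID and 0.12 in Med15/16-AID. In the same order they put that of the members at 0.24, 0.01, 0.17 and 0.08. They were run for these 4 comparisons (18 calls) and not for Mot1/Med16-AID, the strain comparisons or the differences between responses. Whether same-numbered libraries were paired is not stated in the labels. Correlations of their deviations ran from -0.264 to 0.277, with every library best with its own number in Med15-AID alone. With the replicate number as a block the counts were 1, 11, 3, 3 and 23 in *med16*Δ, Med16-AID, Med15-AID, Med15/16-AID and Mot1/Med16-AID. They were 45, 17 and 20 in the strain comparisons and 21, 0, 1 and 20 in the differences, with 6 of 167 calls lost. Members had 246 counts or more per library, so depth limits sense changes little.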
